A study of Mus musculus with 12 samples.

Results

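The insulin-like growth factor (IGF) axis of C57MG cells, a mouse mammary epithelial line, was followed through 10 genes: the ligands *Igf1* and *Igf2*, the receptor *Igf1r*, the receptor substrates *Irs1* and *Irs2*, and the binding proteins *Igfbp2*, *Igfbp3*, *Igfbp4*, *Igfbp5* and *Igfbp6*. Members were taken by symbol, as every array probe that is not a control and carries one of these names. That rule found 17 of the 41174 probes on the array (35 of 43379 spots), for 9 of the 10 genes, among 27962 gene names in all. No probe carried the name *Irs2*, which was not analysed here. Detection required that the scanner software marked a probe as well above background in every array of some treatment group, and 10 probes of 7 genes met this limit.

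IGF1 and IGF2 are secreted growth factors that bind the receptor tyrosine kinase encoded by *Igf1r*. The activated receptor phosphorylates the docking proteins IRS1 and IRS2, which pass the signal on to the PI3K/AKT and ERK cascades, and in the mammary gland the axis is known for its part in ductal growth and in the survival of epithelial cells. The IGF-binding proteins hold the ligands outside the cell, where they prolong their half-life and limit, or in some settings help, their access to the receptor.

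The cells were grown in medium with 10% serum and 10 µg/ml insulin, which was replaced by plain DMEM, and were then exposed for 24 h to 1 of 4 treatments. The groups received BSA, the carrier protein, as control, recombinant human Rspo2 at 100 ng/ml, recombinant mouse Wnt3a at 100 ng/ml, or Rspo2 plus Wnt3a, both at 100 ng/ml. Wnt3a activates Wnt/β-catenin signaling, and Rspo2 is a secreted protein that enhances it. Each group had 3 arrays with RNA of separate monolayers of this one line, so the p-values measure the spread between monolayers, and insulin, itself able to act on this axis, was part of the history of every group.

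Signals are given as log2 values less that of the 75th percentile of their array, a scale on which 0 is the signal at that percentile. A value says how bright a probe was against the rest of its own array, and levels of different probes cannot be set against each other. Calls needed both an adjusted p under 0.05 (limma, Benjamini-Hochberg over 22751 detected probes) and a difference of 2-fold or more. The 12 arrays had 51.3% to 64.2% of their probes well above background, with the highest share on BSA replicate 1, and no IGF-axis probe was saturated. There were 3 slides. All BSA arrays shared slide 1 with Rspo2 replicate 1, the remaining Rspo2 arrays shared slide 2 with Wnt3a replicates 1 and 2, and Wnt3a replicate 3 shared slide 3 with every combination array. BSA could therefore not be compared with Wnt3a or with the combination inside any slide, and results are also given within slides, or from a fit that has slide as a term, where this changed a call.

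The labelled cell type was checked against its markers. Of 5 luminal markers only *Krt8* was above background on all 12 arrays, *Cdh1* was above it on none and *Epcam* on 2, while 4 of 6 basal or myoepithelial markers (*Krt14*, *Krt17*, *Trp63* and *Acta2*) and 6 of 7 fibroblast markers (among them *Vim* and *Col1a1*) were above it throughout. The endothelial marker *Pecam1* and the leukocyte marker *Ptprc* were each above background on 1 array, and the adipocyte marker *Plin1* on none, while 1 of 5 adipocyte markers (*Fabp4*), 1 of 4 endothelial markers (*Cdh5*) and the leukocyte marker *Cd68* were above it throughout. The summed intensity of the basal markers was 132180 to 152137 on the BSA arrays and 232913 to 242817 with both proteins, without overlap. This sum was carried by *Acta2* (log2 change 0.78) and *Krt14* (1.24), while *Krt17* and *Trp63* had changes of -0.35 and -0.40. The sums of the adipocyte markers (555.1 to 574.7 against 284.6 to 355.2) and of the endothelial markers (2340 to 2980 against 1539 to 1841) were lower with both, also without overlap, and rested almost wholly on *Fabp4* and *Cdh5*. Luminal and fibroblast sums overlapped between these groups, although *Krt8* (-1.15) and the fibroblast marker *Pdgfra* (-1.37) were lower with both. The part of these shifts in the IGF-axis results was not tested.

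Because *Igf1*, *Irs1* and *Igfbp2* were the genes of the axis that moved together (below), the 250 bases before their annotated transcription starts (RefSeq, GRCm38.p6) are shown 5′ to 3′ on the strand of the gene. Capitals mark matches, on either strand, to CTTTGAA, to its form CTTTGAT, to its form CTTTGTA or to its form CTTTGTT, which the TCF/LEF partners of β-catenin are known to bind.
Igf1, chr10:87860861-87861110, + strand: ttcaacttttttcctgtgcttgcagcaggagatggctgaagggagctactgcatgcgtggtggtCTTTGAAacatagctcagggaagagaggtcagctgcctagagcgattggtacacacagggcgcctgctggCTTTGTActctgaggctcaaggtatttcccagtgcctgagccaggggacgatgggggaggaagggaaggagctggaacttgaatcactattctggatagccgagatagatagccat
Irs1, chr1:82291440-82291689, - strand: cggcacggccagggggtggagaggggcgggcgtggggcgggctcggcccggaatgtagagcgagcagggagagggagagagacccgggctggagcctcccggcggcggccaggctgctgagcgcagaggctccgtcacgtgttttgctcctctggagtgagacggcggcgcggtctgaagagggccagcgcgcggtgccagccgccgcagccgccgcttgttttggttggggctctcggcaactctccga
Igfbp2, chr1:72824230-72824479, + strand: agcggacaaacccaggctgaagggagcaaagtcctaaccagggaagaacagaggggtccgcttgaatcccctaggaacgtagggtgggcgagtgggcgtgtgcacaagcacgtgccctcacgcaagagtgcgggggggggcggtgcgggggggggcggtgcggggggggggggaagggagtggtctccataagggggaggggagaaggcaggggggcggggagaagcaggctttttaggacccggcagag
The *Igf1* window held 2 matches, which began 186 and 116 bases before the start. The *Irs1* and *Igfbp2* windows held none, nor did any of the other 11 windows annotated for the 10 genes. Of all 32851 promoter windows of this length, 14.8% held at least 1 match, and G and C made up 52.8% of the *Igf1* window, 72.4% of the *Irs1* window and 67.2% of the *Igfbp2* window against a median of 52.4%. A match is a description of the letters and not of a bound site, and the absence of these letters from a window says nothing of the factor.

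Against BSA, cells given both proteins had higher *Igf1* and *Irs1* mRNA, by 3.20- to 3.49-fold and 3.07- to 3.19-fold. *Igfbp2*, above background on 1 of 3 BSA arrays, was 6.89-fold higher with each BSA array raised to its lowest signal above background. *Igf2* did not pass the test, and *Igf1r*, *Igfbp4* and *Igfbp6* were lower by less than 2-fold. With Wnt3a alone *Igf1* was already called higher, at 2.04- to 2.16-fold, and *Igfbp2* was 2.05-fold higher than BSA signals raised in the same way. With Rspo2 alone no probe of the axis was called. The *Igfbp2* probe counted as detected only through the groups in which it was bright, so it had to differ and is left out of the next counts, which cover the other 9 probes. Of these, 4 were called with both proteins, all of them higher, where 5.08% of all detected probes were called (1.28% higher and 3.79% lower). With Wnt3a 2 were called, both higher, against 2.52% of all probes (0.404% higher and 2.11% lower). With Rspo2 0 were called, against 0.721% of all probes (0.101% higher and 0.62% lower). For Rspo2 limma gave 1 probe at an unadjusted p under 0.05, a limit at which the share of all probes was not counted. The methods' t-test called 0. At an adjusted p under 0.05 whatever the fold, 1 of 9 probes passed with Rspo2 (16.8% of all probes), 6 with Wnt3a (31.5%) and 8 with both (39.2%). The 3 arrays of a treatment did not overlap the 3 of BSA for 1 probe with Rspo2, 5 with Wnt3a and 8 with both, where 43.5%, 45.5% and 54% of all probes did not overlap. The median log2 change over the 9 probes was 0.12 with Rspo2, -0.12 with Wnt3a and -0.14 with both, beside 0.01, 0.00 and 0.04 over all detected probes. With *Igfbp2* counted, the medians with Wnt3a and with both were 0.22 and 0.74, so their sign rested on 1 probe. The axis did not move one way, as *Igf1* and *Irs1* were higher with both and *Igf1r*, *Igfbp4* and *Igfbp6* lower. The 3 comparisons share the BSA arrays, and 3 of the 7 detected genes are represented by a pair of probes, so the values are not independent.

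**Figure D1:**
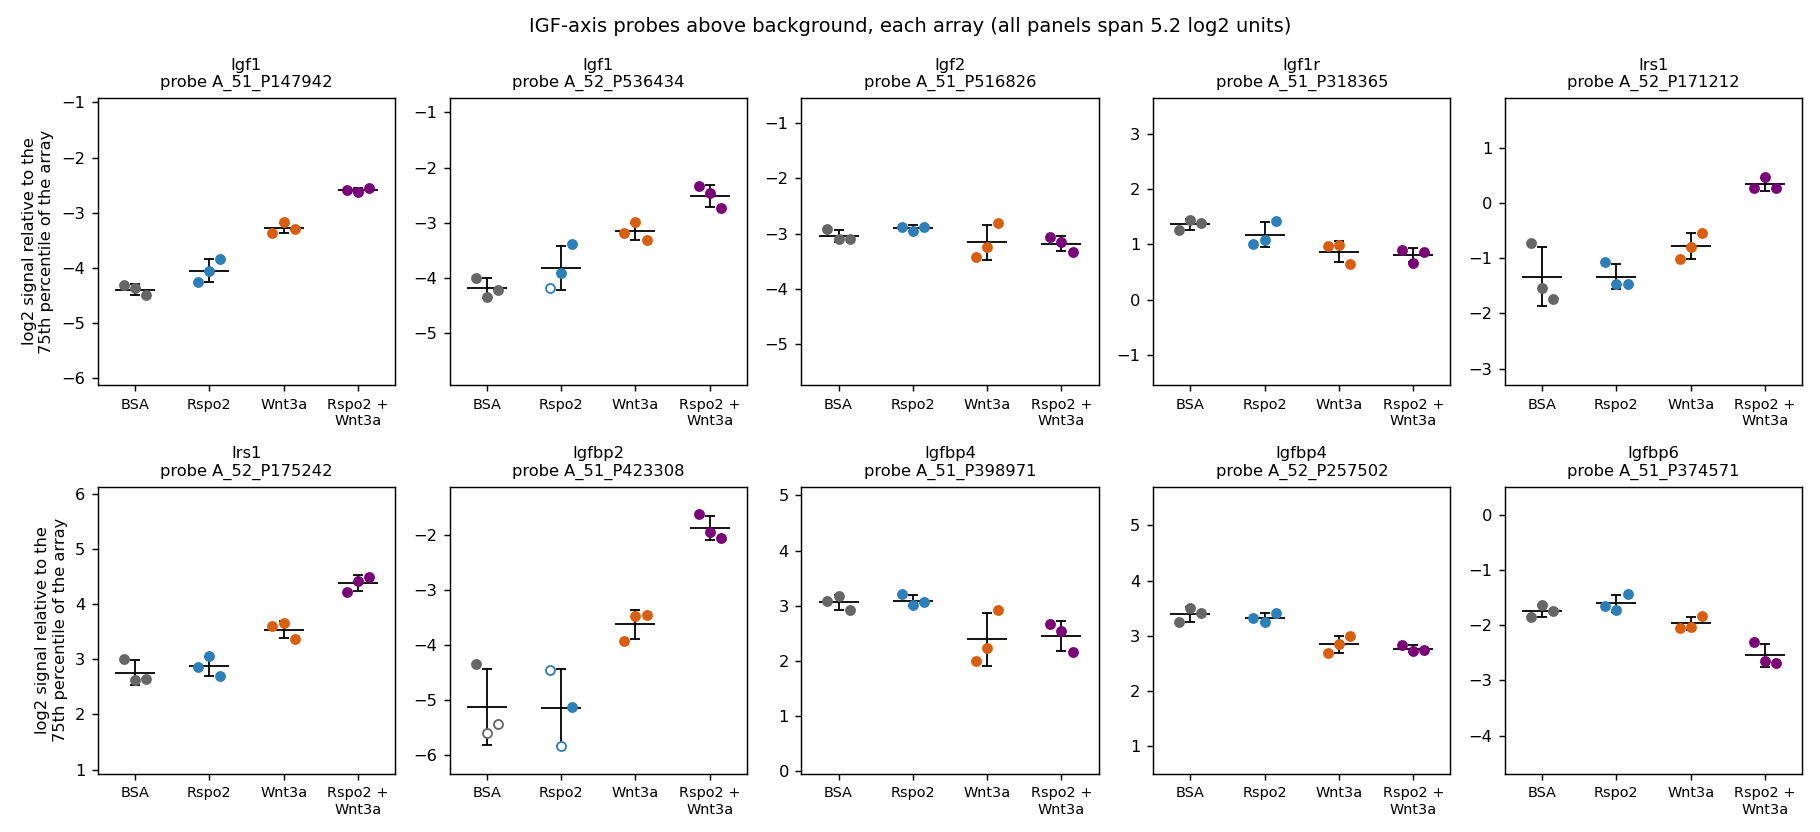
Each panel shows 1 detected IGF-axis probe in the 12 arrays, by treatment on the x axis and scaled log2 signal (75th percentile of the array at 0) on the y axis. Points are arrays (open where not well above background), and black bars give the mean and SD of 3 arrays. Both *Igf1* probes, both *Irs1* probes and *Igfbp2* are highest in the 3 arrays with Rspo2 plus Wnt3a, where *Igf1r*, *Igfbp4* and *Igfbp6* lie below BSA.

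*Igf1*, the ligand made by liver and by many tissues locally, was measured by 2 detected probes. On the probe printed in 10 spots (A_51_P147942) the 3 BSA arrays stood at -4.31, -4.37 and -4.49. The Rspo2 arrays stood at -4.26, -4.05 and -3.84, the Wnt3a arrays at -3.37, -3.18 and -3.29, and the arrays with both at -2.58, -2.63 and -2.55. The 4 groups thus lay in the order BSA, Rspo2, Wnt3a and combination, and no neighbouring groups overlapped. In intensity the probe was dim, with means ± SD of 50.5 ± 4.43 for BSA and 164 ± 14.1 for the combination (n = 3), but it was above background on all 12 arrays and the 10 spots of an array varied by a median of 7.3% (CV).

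For this *Igf1* probe Wnt3a gave a log2 change of 1.11 ± 0.11 (SE, adjusted p = 0.000129) and the combination 1.80 ± 0.11 (adjusted p = 9.29e-07), both called. With Rspo2 alone it was 0.34 ± 0.11 (adjusted p = 0.0493), a 1.27-fold difference that stayed below the 2-fold limit. With slide as a term this difference was 0.13 (adjusted p = 0.597). The combination exceeded Wnt3a by 0.69 ± 0.11 (adjusted p = 0.00408), again below 2-fold. Within slide 3, the combination exceeded the single Wnt3a array by 0.71, and within slide 2 Wnt3a exceeded Rspo2 by 0.67. Fitted with slide as a term, the combination still gave a called change, 1.52 (adjusted p = 0.00926), whereas Wnt3a gave 0.81 (adjusted p = 0.0805), which was not called. The call with Wnt3a was lost too under normexp, a model-based background correction, on both *Igf1* probes and with or without the 2 arrays of high local background (BSA replicate 1 and Rspo2 replicate 2), as was that of *Igfbp2*. Over all arrays, normexp also ended the calls with both proteins of these *Igf1* probes (0.63 and 0.59) and of *Igfbp2* (1.40). Without those 2 arrays each of these was called.

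The other detected *Igf1* probe (A_52_P536434), which by the coordinates in the array files (build not named) lies 17.1 kb upstream of the first, gave values close to these. It was above background on 11 of 12 arrays, with -4.00, -4.35 and -4.21 in BSA and -4.17, -3.91 and -3.39 with Rspo2, which overlapped. It stood at -3.18, -2.99 and -3.30 with Wnt3a and at -2.34, -2.46 and -2.73 with both, above all BSA arrays. Wnt3a gave a log2 change of 1.03 ± 0.19 (adjusted p = 0.00300) and the combination 1.68 ± 0.19 (adjusted p = 8.49e-05), both called. With slide in the fit these were 0.58 (adjusted p = 0.432) and 1.38 (adjusted p = 0.112), neither of them called. The call with Wnt3a was also lost without BSA replicate 2 (0.95) or Wnt3a replicate 2 (0.95). Scaling by the probes above background on all arrays put Wnt3a at 0.91 for this probe and 0.99 for the first, just under 2-fold. Across the 12 arrays both probes correlated at r = 0.975, as a description of signals on the same arrays. The remaining *Igf1* probe, 68.1 kb upstream of the first, was above background on no array.

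*Igf2*, the fetal growth factor of the axis, stood at -2.92, -3.11 and -3.10 in BSA on its probe of 10 spots (A_51_P516826). It stood at -2.87, -2.96 and -2.87 with Rspo2, at -3.43, -3.25 and -2.81 with Wnt3a and at -3.07, -3.15 and -3.34 with both. All 3 treated groups overlapped BSA. The log2 change was 0.14 with Rspo2 (95% confidence interval -0.17 to 0.46), -0.12 after Wnt3a (interval -0.43 to 0.20) and -0.14 after the combination (interval -0.45 to 0.17), with adjusted p between 0.466 and 0.568, so a change of 2-fold lay outside each interval in this fit. A slide term moved the value for the combination to -0.63 (adjusted p = 0.228). Its other probe, 0.414 kb away, was above background on 5 of 12 arrays and was not tested.

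*Igf1r*, the receptor tyrosine kinase, was detected on all arrays by 1 of its 2 probes (A_51_P318365). BSA arrays stood at 1.26, 1.44 and 1.39 and Rspo2 arrays at 1.02, 1.08 and 1.43, with overlap. Wnt3a arrays stood at 0.96, 0.99 and 0.65 and combination arrays at 0.90, 0.67 and 0.86, all of them below every BSA array. Wnt3a gave a log2 change of -0.50 ± 0.13 (adjusted p = 0.0159) and the combination -0.56 ± 0.13 (adjusted p = 0.00693), or 0.709 and 0.681 of BSA. Neither reached 2-fold, and adding Rspo2 to Wnt3a gave -0.06 (95% confidence interval -0.35 to 0.23). In the fit with slide the changes with Wnt3a and with both were -0.63 and -0.47 (adjusted p = 0.229 and 0.439). Over all alternatives they ran from -0.63 to -0.17 and from -0.67 to -0.34.

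*Irs1*, the docking protein that links the IGF1 and insulin receptors to PI3K, was detected by both of its probes on all 12 arrays. The brighter probe (A_52_P175242) stood at 3.01, 2.62 and 2.64 in BSA and at 2.86, 3.06 and 2.70 with Rspo2. With Wnt3a it stood at 3.60, 3.65 and 3.36, and with both at 4.22, 4.41 and 4.50. BSA and Rspo2 overlapped, while Wnt3a lay above both and the combination above Wnt3a. In intensity this was 7146 ± 483 in BSA and 20591 ± 3209 with both (mean ± SD, n = 3).

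On this probe *Irs1* differed from BSA by 0.12 ± 0.14 on the log2 scale after Rspo2 (adjusted p = 0.578), by 0.78 ± 0.14 after Wnt3a (adjusted p = 0.00266) and by 1.62 ± 0.14 after both (adjusted p = 1.29e-05), of which only the last reached 2-fold. This change with both was the one member result that was called under every alternative run. It became 1.86 (adjusted p = 0.0233) when slide entered the fit, and the step from Wnt3a to both, 0.84 ± 0.14 in the fit without it (adjusted p = 0.00597), was 1.01 (adjusted p = 0.0461). On the dimmer probe (A_52_P171212), 3.87 kb upstream, BSA arrays stood at -0.73, -1.54 and -1.74, Rspo2 arrays at -1.07, -1.47 and -1.46, Wnt3a arrays at -1.01, -0.80 and -0.55, and arrays with both at 0.27, 0.48 and 0.27. BSA overlapped Rspo2 and, through its replicate 1, Wnt3a, and the combination lay above them all. Here the change was 1.67 ± 0.23 with both (adjusted p = 0.000372) and the step from Wnt3a to both 1.13 ± 0.23 (adjusted p = 0.0213), both called, while neither was called once slide entered the fit (1.71 and 0.88, adjusted p = 0.155 and 0.335). The step was also not called without Wnt3a replicate 1 or 2 or any 1 of the combination arrays (1.01 to 1.16, adjusted p = 0.0510 to 0.0943).

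The binding proteins split. *Igfbp2*, which binds IGF2 with the higher affinity and also acts on cells through integrins, rose with Wnt3a and with both proteins. *Igfbp4*, an inhibitor of IGF action that the protease PAPP-A cleaves, and *Igfbp6*, which prefers IGF2, were lower with both. *Igfbp3* and *Igfbp5*, by contrast, were not detected.

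*Igfbp2* (A_51_P423308) stood at -4.33, -5.59 and -5.44 in BSA and at -4.44, -5.83 and -5.12 with Rspo2, and only 1 array in each of these groups was above background. It stood at -3.93, -3.48 and -3.46 with Wnt3a and at -1.63, -1.95 and -2.06 with both, all 6 arrays above background. The combination lay above Wnt3a and Wnt3a above BSA, without overlap. Intensities ran from 23.7 to 47.1 in BSA, from 58.8 to 73.1 after Wnt3a and from 248 to 305 after both proteins. Each BSA array was also raised to the lowest signal of any probe above background on it. Wnt3a was then 2.05-fold and the combination 6.89-fold higher (1.04 and 2.78 on the log2 scale), against 1.50 and 3.24 from the signals as measured. These folds are not lower limits, as normexp over all arrays gave 0.29 with Wnt3a and 1.40 with both.

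A fit with no filter on dim probes, in which the place of *Igfbp2* did not depend on its level, gave an adjusted p of 0.0397 for Wnt3a and 0.000755 for both, and both were called. The step from Wnt3a to both, between groups above background on all arrays, was 1.75 ± 0.37 (adjusted p = 0.0239), a 3.35-fold change, but with no filter on dim probes its adjusted p was 0.0937 and it was not called. Within slide 3 the combination exceeded the single Wnt3a array by 1.58. With slide as a term the change after both proteins was called (adjusted p = 0.0346), while that after Wnt3a (adjusted p = 0.128) and the step (1.58, adjusted p = 0.212) were not. That fit kept the filter which *Igfbp2* passed only through its bright groups, so its call adds no support. The change after both was not called under normexp, a model-based background correction, over all arrays or under the methods' t-test with adjustment. Leaving out Wnt3a replicate 1 or 2 or any 1 of the combination arrays also ended the call of the step (1.59 to 1.84, adjusted p = 0.0584 to 0.0893). No fold is given for Rspo2 against BSA, where most arrays of both groups were below background.

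*Igfbp4* was bright and detected on all arrays by both probes. On the brighter (A_52_P257502) BSA arrays stood at 3.24, 3.50 and 3.42, Rspo2 arrays at 3.32, 3.24 and 3.41, Wnt3a arrays at 2.68, 2.86 and 3.0, and combination arrays at 2.84, 2.72 and 2.74. Wnt3a and the combination overlapped each other and lay below BSA and Rspo2, which also overlapped. Wnt3a gave a log2 change of -0.54 ± 0.10 (adjusted p = 0.00326) and the combination -0.62 ± 0.10 (adjusted p = 0.000869), or 0.688 and 0.650 of BSA, below the 2-fold limit. The other probe (A_51_P398971) gave -0.67 ± 0.21 and -0.61 ± 0.21 (adjusted p = 0.0329 and 0.0408). On it 1 Wnt3a array, at 2.93, reached the BSA range of 2.92 to 3.18. With slide in the fit none of these passed: the brighter probe gave -0.62 and -0.85 (adjusted p = 0.175 and 0.0972) and the other -0.77 and -1.25 (adjusted p = 0.240 and 0.0974), the last value being past 2-fold. Over all alternatives the brighter probe ran from -0.77 to -0.21 with Wnt3a and from -0.85 to -0.41 with both. The other ran from -0.94 to -0.34 and from -1.25 to -0.39.

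*Igfbp6* (A_51_P374571) stood at -1.85, -1.64 and -1.75 in BSA, -1.65, -1.73 and -1.43 with Rspo2, -2.04, -2.03 and -1.84 with Wnt3a and -2.31, -2.65 and -2.69 with both. The combination arrays lay below all others, and the other 3 groups overlapped through the BSA arrays. Wnt3a gave a log2 change of -0.22 ± 0.12 (adjusted p = 0.183) and the combination -0.80 ± 0.12 (adjusted p = 0.000579), or 0.574 of BSA. With slide in the fit the latter was -1.06 (adjusted p = 0.107), and over all alternatives it ran from -1.06 to -0.59. Within slide 3 the combination lay 0.71 below the single Wnt3a array.

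*Igfbp3*, which carries most IGF in blood, was above background on 2 of 12 arrays by one probe and on 1 by the other. *Igfbp5*, a binding protein known from the involuting gland, was above background on no array by either of its probes, and its neighbour on the chromosome is *Igfbp2*. No fold is given for these probes.

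**Figure D2:**
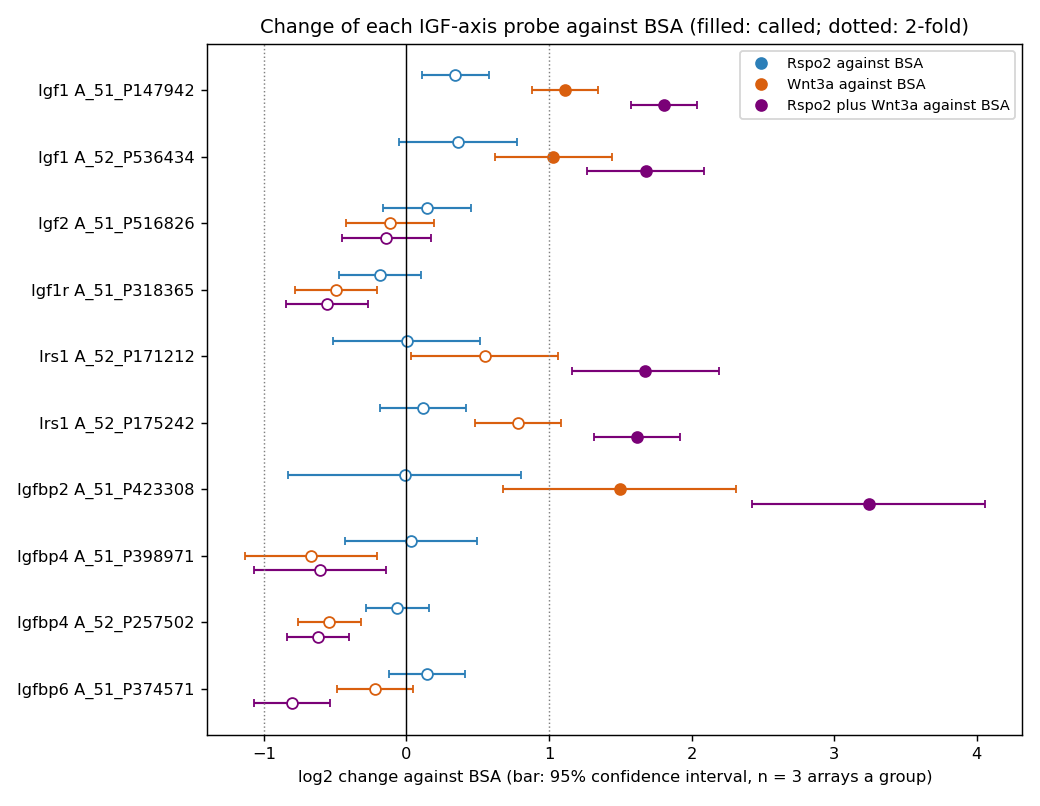
Log2 change against BSA of the 10 detected IGF-axis probes (y axis), with 1 colour per treatment and bars for the 95% confidence interval of the limma fit. Filled points are called, and dotted lines mark 2-fold. *Igf1*, *Irs1* and *Igfbp2* lie to the right with Rspo2 plus Wnt3a (1.62 to 3.24, where *Igfbp2* is set against BSA signals above background on 1 of 3 arrays), *Igf1r*, *Igfbp4* and *Igfbp6* to the left of 0 but short of 2-fold (-0.56 to -0.80), and *Igf2* at 0 within its interval.

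What Rspo2 added was compared without and with Wnt3a. Against Wnt3a alone, 1 of the same 9 probes was called (the dimmer *Irs1* probe, higher) besides *Igfbp2*, where 0.747% of all probes were called (0.413% higher and 0.334% lower). At an adjusted p under 0.05 whatever the fold 4 of the 9 passed (4.27% of all probes), and for 5 the arrays did not overlap (21.4%). The same addition without Wnt3a called none. The difference between both additions is the interaction, that is, the log2 change with both proteins less the changes with each alone. It called 0 of the 10 probes at 2-fold, where 1.93% of all probes were called (1.27% higher and 0.651% lower). With limma 5 of the 10, *Igfbp2* among them, had an unadjusted p under 0.05. The share of all probes at that unadjusted limit was not counted, so this count is not read as a result about the axis.

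At an adjusted p under 0.05 but below 2-fold, the interaction of *Irs1* (A_52_P175242) was 0.72 ± 0.19 (adjusted p = 0.0454), with Rspo2 adding 0.12 in the absence of Wnt3a and 0.84 in its presence. That of *Igfbp6* was -0.72 ± 0.17 (adjusted p = 0.0304), with Rspo2 adding 0.14 without Wnt3a and -0.58 with it. Of all probes 8.9% passed at this limit. With 1 array left out at a time, the adjusted p was 0.05 or more in 11 of 12 fits for *Irs1* (all but that without combination replicate 1) and in 6 of 12 for *Igfbp6* (those without BSA replicate 1 or 3, Rspo2 replicate 3, Wnt3a replicate 2 or combination replicate 2 or 3). The interaction of the dimmer *Irs1* probe, 1.13 ± 0.33 (adjusted p = 0.0576), missed the threshold, as did that of *Igfbp2* (adjusted p = 0.0601), which rests on BSA and Rspo2 arrays mostly below background.

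For *Igf1* the interaction was 0.35 ± 0.15 (adjusted p = 0.150, 95% confidence interval 0.02 to 0.68) and 0.29 ± 0.26 (adjusted p = 0.497, -0.30 to 0.87) on its 2 probes. For *Igf1r* it was 0.13 (-0.28 to 0.53), for the brighter *Igfbp4* probe -0.02 (-0.33 to 0.30) and for *Igf2* -0.17 (-0.61 to 0.27). Whether the added effect of Rspo2 depended on Wnt3a was thus not shown for these genes. In the fit with slide no IGF-axis probe had an adjusted interaction p below 0.187.

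**Figure D3:**
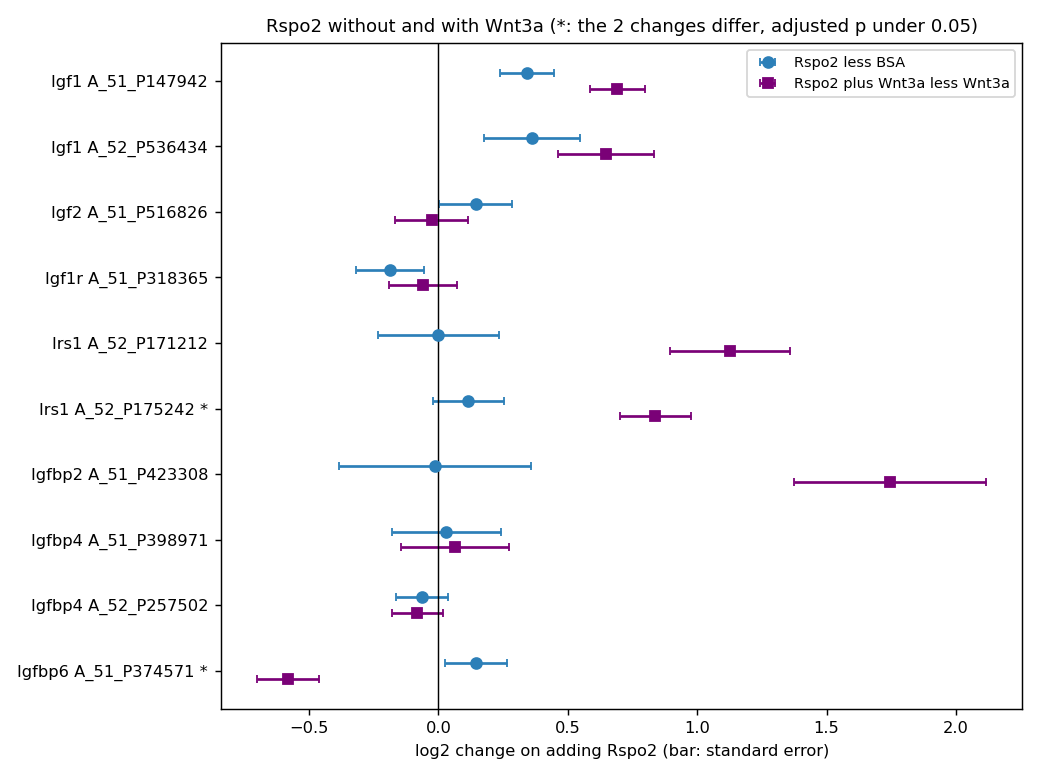
Log2 change on adding Rspo2 to cells without Wnt3a (circles, Rspo2 less BSA) and with Wnt3a (squares, combination less Wnt3a), with standard errors, for the 10 detected probes on the y axis. An asterisk marks probes for which these changes differed at an adjusted p under 0.05. *Irs1* goes from 0.12 to 0.84 on its brighter probe and *Igfbp6* from 0.14 to -0.58, while both *Igfbp4* probes stay near 0.

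**Figure D4:**
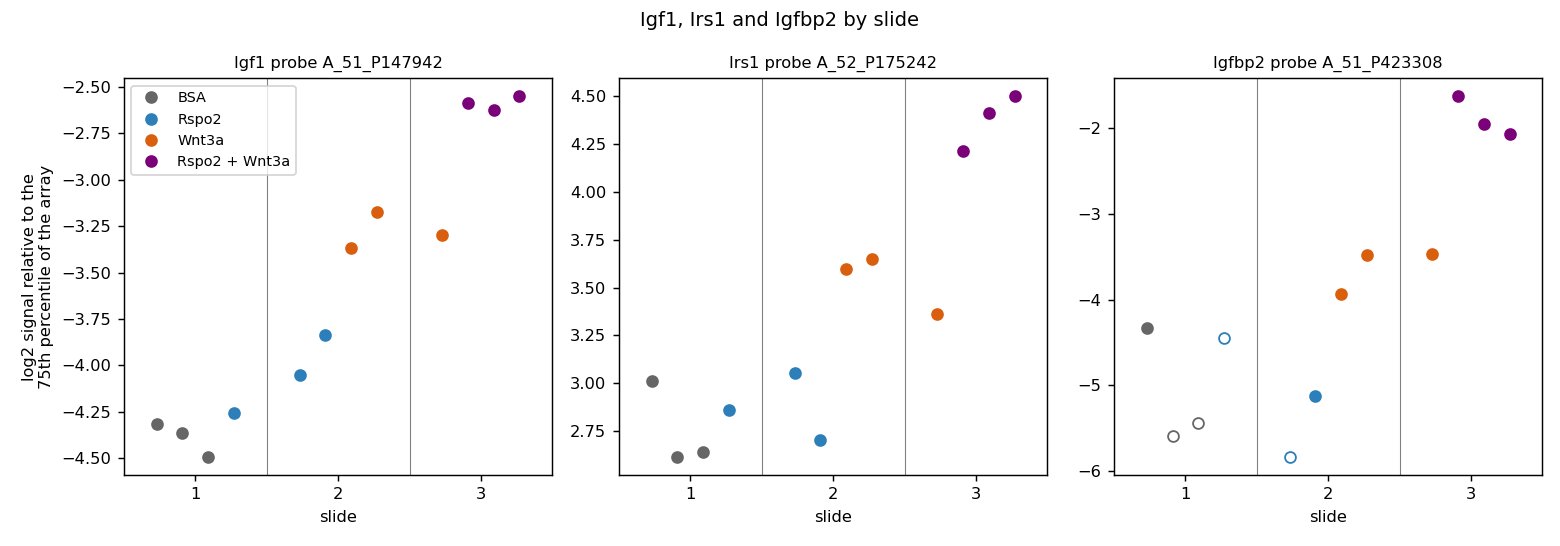
The same log2 signals of *Igf1*, *Irs1* (brighter probe) and *Igfbp2* (y axis) placed by slide (x axis) and coloured by treatment, 1 point per array and open points where not well above background. Slide 3 holds the combination beside a single Wnt3a array that lies 0.71, 1.01 and 1.58 below its mean, and slide 2 holds Wnt3a above Rspo2 by 0.67, 0.75 and 1.77.

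The wider pathway was described by a list of 72 further genes in 11 roles, of which 71 had a probe and 59 were detected. With Rspo2 alone and with Wnt3a alone 0 of the 59 were called by limma or by the methods' t-test. Of all probes limma called only 0.721% and 2.52%, shares that amount to few among 59 genes. By limma 5 and 16 of the 59 had an adjusted p under 0.05 (8.47% and 27.1%, against 16.8% and 31.5% of all probes). At an unadjusted limma p under 0.05 there were 15 and 21, a limit at which the share of all probes was not counted. With both proteins none was called higher and 2 lower, *Deptor* and *Stc1*, a share of 3.39% near the 3.79% of all probes called lower. At an adjusted p under 0.05 it was 19 of 59, or 32.2%, against 39.2%. The median log2 change of the 59 genes was 0.02, -0.01 and -0.08 in the 3 comparisons with BSA. By role, none of the 9 detected adaptors (such as *Grb2*, *Shc1* and *Gab1*), 12 genes of the PI3K and AKT arm, 8 of the ERK arm, 3 FoxO factors or 6 phosphatase and feedback genes was called against BSA.

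*Deptor*, whose protein binds and inhibits mTOR, stood at 1.28, 1.38 and 1.29 in BSA, 1.64, 1.52 and 1.72 with Rspo2, 0.69, 0.79 and 0.92 with Wnt3a and -0.34, -0.51 and -0.73 with both. The combination lay lowest and no groups overlapped. Its log2 change was -1.84 ± 0.11 with both (adjusted p = 8.75e-07) and the step from Wnt3a -1.33 ± 0.11 (adjusted p = 7.02e-05), both called. The interaction of -1.64 ± 0.15 (adjusted p = 0.000333) was called too, while Rspo2 alone gave 0.31 (adjusted p = 0.0673). A slide term gave -2.01 for the combination (adjusted p = 0.00603) and -1.77 for the interaction (adjusted p = 0.0128), both still called. The change with both was called under all 30 alternatives. Normexp over all arrays ended the calls of the step and of the interaction, and the methods' t-test with adjustment that of the step.

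*Stc1*, which encodes an inhibitor of the PAPP-A proteases that cleave IGFBP4, stood at -2.89, -3.08 and -3.18 in BSA and at -3.97, -4.19 and -4.64 with both, without overlap. Its log2 change was -1.21 ± 0.19 (adjusted p = 0.000837), and -1.65 with slide as a term (adjusted p = 0.120), where it was not called. Normexp, with or without the 2 arrays of high local background, and the methods' t-test with adjustment ended this call too. Scaling to the median of the array also ended it, at just under 2-fold. Over 30 alternatives the change ran from -1.65 to -0.51. *Pik3cd*, a catalytic subunit of PI3K, was called only in the interaction, at 1.04 ± 0.23 (adjusted p = 0.0267). It was lower than BSA by less than 2-fold in every treated group, with -0.87 for Rspo2, -0.88 for Wnt3a and -0.71 for both. That interaction was no longer called under 15 of 27 alternatives, among them leaving out BSA replicate 1 or 3, Rspo2 replicate 2 or 3, Wnt3a replicate 2, or combination replicate 2 or 3, and slide as a term (0.77, adjusted p = 0.289). Chosen after its values were seen, *Igf2r*, the clearance receptor for IGF2, had a log2 change of -0.97 with both, just short of 2-fold.

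**Figure D5:**
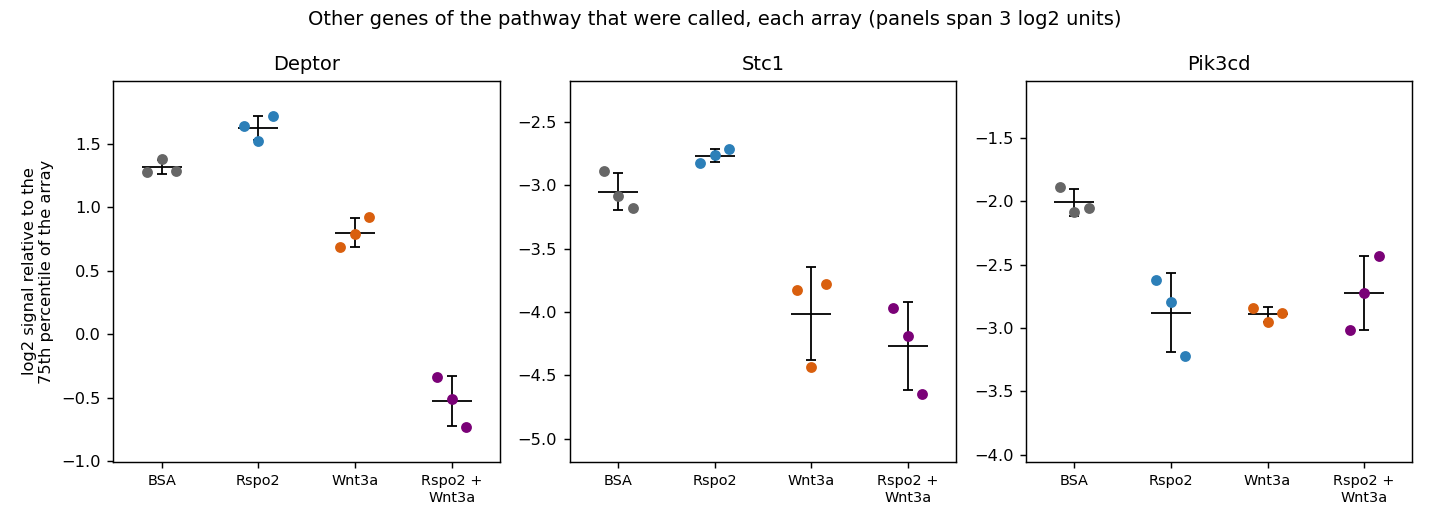
Scaled log2 signal (75th percentile of the array at 0, y axis) by treatment (x axis) for the 3 genes of the wider pathway that were called in some comparison, with points for arrays and black bars for the mean and SD of 3. *Deptor* falls from 1.28 to 1.38 in BSA to -0.34 to -0.73 with both proteins, *Stc1* is lowest with Wnt3a and with both, and *Pik3cd* is lower than BSA in all 3 treated groups.

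Genes whose signal over the 12 arrays was most like that of the 3 members with the largest change were picked by Pearson correlation among all detected named probes, as a description. For *Igfbp2* these included *Plk2* (r = 0.980) and *Senp5* (0.978). For *Igf1* they were *Helt* (0.979), *Adk* (0.977) and *Psme2b-ps* (0.976), and for *Irs1* *Trim16* (0.992), *Fam107b* (0.991) and *Rnd3* (0.990). The log2 change of these 8 genes with both proteins ran from 0.24 for *Senp5* to 2.97 for *Helt*. In the GRCm38.p6 annotation the protein-coding neighbours of *Igfbp2* are *Rpl37a* and *Igfbp5*, and those of *Irs1* are *Nyap2* and *Rhbdd1*. *Igfbp4* lies between *Top2a* and *Tns4*, *Igfbp6* between *Spryd3* and *Soat2*, *Igf1r* between *Synm* and *Pgpep1l*, *Igf2* between *Mrpl23* and *Ins2*, and *Igfbp3* beside *Igfbp1*.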

How the data were processed

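RNA from the 12 monolayers had been labeled with 1 dye and hybridized to arrays of oligonucleotide probes. Per the file headers, the authors extracted spots with Agilent Feature Extraction 9.5.3.1. The deposited intensity values are background-subtracted and not scaled between arrays, and come with flags for spots above background or saturated. The deposited table of ratio values holds each spot signal divided by the 75th percentile of its array, with a lowest value of 0.01, and was used as an alternative.

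Spots marked as uneven or as outliers were left out (1327 of 520548 values), spots of a probe were averaged, and the 75th percentile of each array was subtracted from its log2 intensities. For a probe in several spots, 0.5 of them had to carry a flag, and each group needed values on 2 arrays. Of the 17 member probes 12 matched their symbol through the accession in RefSeq (GRCm38.p6). All 12 arrays entered 1 limma 3.58.1 fit in R 4.3.3 (prior degrees of freedom 2.74), with no covariate. P-values were adjusted over the 22751 detected probes of each comparison, and probes with an adjusted p under 0.05 and a 2-fold change were called. Precision is limited by the 3 arrays per group and by signal over background. The fit was tested on simulated data. Alternatives were 17 other settings (background correction, scaling, filters, test, slide and replicate block), each of the 12 arrays left out in turn, and 1 more chosen after seeing the data.

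Every member probe was reported, with the brightest detected probe standing for a gene. Pathway genes were named where called, and for the 3 members with the largest change with both proteins the 3 genes of highest correlation. Of these, of the leukocyte markers and of the neighbouring genes, some are not reported here. Members and lists were chosen with earlier results of these data known. Tables and figures were made with Python, pandas and matplotlib.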

Additional observations from a re-analysis of the deposited data

Results flagged for a closer look

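The effect of Rspo2 on 2 probes differed between cells without and with Wnt3a by the interaction term of the limma fit, at less than 2-fold. For *Irs1* (A_52_P175242) the difference was 0.721 on the log2 scale (adjusted p = 0.0454): Rspo2 arrays overlapped BSA, whereas the 3 arrays with both proteins were higher than all Wnt3a arrays. For *Igfbp6* (A_51_P374571) it was -0.725 (adjusted p = 0.0304): Rspo2 arrays overlapped BSA, and the 3 arrays with both lay below all Wnt3a arrays. With slide as a term the differences were 0.91 and -0.81 (adjusted p = 0.189 and 0.187), so neither passed. Over 27 alternatives the adjusted p was 0.05 or more in 19 for *Irs1* (0.0270 to 0.538) and in 12 for *Igfbp6* (0.0153 to 0.787), and the direction held in all of them.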

How the results depend on the processing

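The 10 called member values include those of *Igfbp2*, which passed the filter only through its bright groups. Of the 10, that of the brighter *Irs1* probe with both proteins was called under all 30 alternatives, and none changed direction. The other 9 lost their call under 1 to 10 alternatives. Of 65 values that changed sign among 1460, none was called in either setting, and their size in the main fit was at most 0.35 on the log2 scale. Under the alternatives some were larger. The interaction of *Igf1* on A_52_P536434, 0.29 in the main fit, went as low as -0.40.

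Counts in this section cover all 10 detected member probes, *Igfbp2* among them. For these the main fit called 0 with Rspo2, 3 with Wnt3a, 5 with both, 2 between both and Wnt3a and 0 in the interaction. Of all detected probes it called 0.721%, 2.52%, 5.08%, 0.747% and 1.93%, in that order. With normexp background correction the member probes called numbered 0 with Wnt3a, 2 with both (the *Irs1* probes) and 0 between both and Wnt3a. On BSA replicate 1 and Rspo2 replicate 2 the highest local background was 8241 and 45100, against 87 to 156 on the other 10 arrays, and normexp left the 5th percentile of their log2 signals at -1.89 and -0.69, against -3.39 to -3.15. With these arrays left out, chosen after seeing the data, normexp called 1 probe with Wnt3a, 5 with both and 1 between both and Wnt3a. That with Wnt3a was the brighter *Irs1* probe (1.02), not called in the report, while both *Igf1* probes (0.69 and 0.75) and *Igfbp2* (0.87) stayed below 2-fold. Scaling by the 75th percentile of probes above background everywhere gave 1 call with Wnt3a and 1 in the interaction. Scaling by the median, which moved the median of all probes by up to 0.33, gave 1 in the interaction. It also called the brighter *Irs1* probe with Wnt3a. Keeping only probes above background on all arrays took *Igfbp2* and the *Igf1* probe A_52_P536434 out of the test. It left 1 call with Wnt3a, 3 with both, 1 between both and Wnt3a and 1 in the interaction. With no filter on dim probes the count between both and Wnt3a was 0. The methods' t-test, adjusted, gave 2 with Wnt3a, 3 with both and 0 between both and Wnt3a. Unadjusted, its counts were 0, 3, 5 and 2, as with limma. Limma with trend and robust variances gave 2 in the interaction. With no fold requirement the counts were 1, 7, 9, 5 and 2 in the order Rspo2, Wnt3a, both, both against Wnt3a and interaction. Of all detected probes 16.8%, 31.5%, 39.2%, 4.27% and 8.9% passed without it, in the same order. With slide as a term the member counts were 0 with Wnt3a, 3 with both and 1 between both and Wnt3a. With slide as a random block instead, limma lost the call of the *Igf1* probe A_52_P536434 with Wnt3a (0.95, adjusted p = 0.00965). Beyond the normexp values and the probes taken out of the test, the cause of these differences was not tested.

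Leaving out 1 array at a time gave 0 calls with Rspo2, 2 to 3 with Wnt3a and 5 with both. Between both and Wnt3a it gave 0 to 2, with 0 when Wnt3a replicate 1 or 2 or any array of the combination was left out. In the interaction it gave 0 to 2, with 2 without Rspo2 replicate 1 and 1 without Wnt3a replicate 3.

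The replicate block left the counts at 0, 3, 5, 2 and 0 and put the interactions of *Irs1* and *Igfbp6* at adjusted p of 0.0814 and 0.0688. Arrays with the same number did not deviate together: their correlations were -0.41 to 0.27 (median 0.01), and 3 of 12 arrays were closest to their own number. Dim probes limit what can be said: *Igfbp2* was above background on 8 of 12 arrays, and *Igfbp3* and *Igfbp5* could not be measured.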
